A study of Mus musculus with 12 samples.

Results

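The livers of newborn mice that lack *Man1a2* were compared with those of their wild-type counterparts, gene by gene, in 6 of the 12 RNA libraries of the series. These are the libraries whose labels give liver as the tissue: 3 from *Man1a2*+/+ (WT) pups and 3 from *Man1a2*-/- (Null) pups, numbered 1 to 3 in each genotype. *Man1a2* encodes a mannosidase of the Golgi apparatus, which trims mannose from N-linked glycans on proteins bound for the cell surface or for secretion. The Null pups carry the germline allele *Man1a2*tm1.1Ahe, in which exon 2 is deleted in all cells. They were bred from heterozygous parents and die of respiratory failure soon after birth, and livers were taken from pups within their first day of life, with no other treatment. The labels give neither litter nor sex, and say nothing of whether more than 1 pup entered a library. The p-values below measure the spread between these libraries.

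At birth the liver holds several tissues in one. Hepatocytes secrete plasma proteins and take over sugar, fat and bile acid metabolism from the placenta, while red cells, granulocytes and platelets still form between them. Stellate cells store vitamin A and supply matrix and blood cell growth factors, and sinusoidal endothelial cells line the vessels and clear material from the blood. Resident macrophages, the Kupffer cells, take up spent red cells and recycle their iron. The 781 genes of 37 lists that stand for these programmes and for neighbouring tissues are described in that order. In whole tissue, fewer cells of a type and less RNA per cell cannot be told apart.

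Depth was 32250518 to 35293748 counted reads in WT and 35354607 to 37603073 in Null livers, so that 3 reads made 0.0798 to 0.0930 CPM (the usual unit of read counts scaled to a common library total), a limit that covers counting error only. Hepatocyte markers were abundant in all libraries, with *Alb*, the main plasma protein, at 85440, 106900 and 75170 CPM in the WT livers and at 100600, 88060 and 123700 CPM in the Null livers. Null liver 1 also held skeletal muscle RNA. The 30 muscle genes took 0.936% of its reads, against 0.00193% to 0.00260% in the other 5 livers, and the heart list took 0.0382% against 0.00137% to 0.00172%. *Acta1*, the actin of skeletal muscle, was counted at 1.39, 0.9598 and 1.78 CPM in the WT livers and at 2627, 1.36 and 0.972 CPM in the Null livers. Every comparison was therefore made with 6 livers and again with 5, without Null liver 1. WT liver 2 held reads of lung genes, with *Sftpc* at 30.7 CPM in it, 4.25 CPM in Null liver 2 and at most 0.733 CPM in the other 4. Female *Xist* reads marked WT liver 1 and Null livers 1 and 2, and Y-linked *Ddx3y* reads marked WT livers 2 and 3 and Null liver 3, so sex was unevenly shared between the genotypes.

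**Figure D1:**
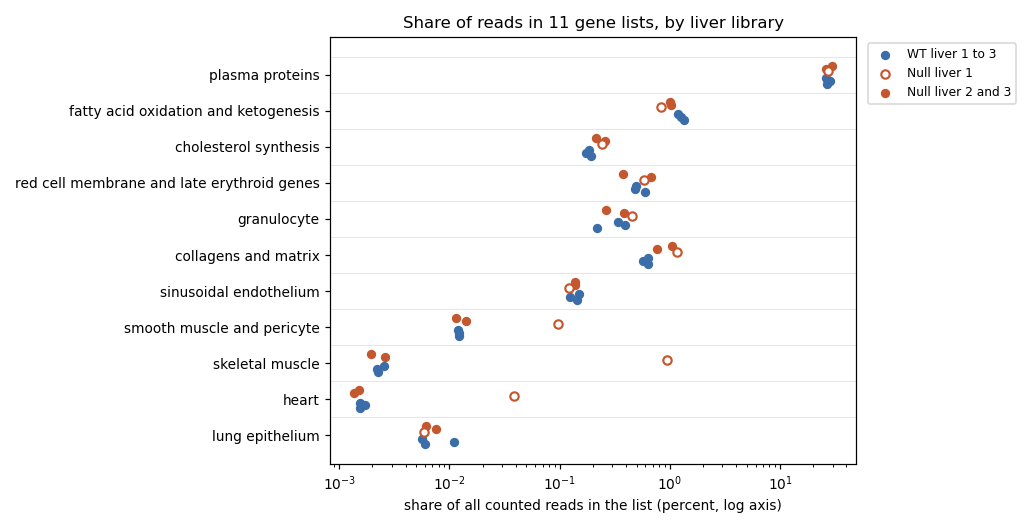
Share of all counted reads, in percent on a log axis, that fell in each of 11 gene lists, with 1 point for each liver library (blue, WT; orange, Null; open, Null liver 1). Null liver 1 stands at 0.936% for the skeletal muscle list, where the other 5 livers lie at 0.00260% or less, and all 3 Null livers lie above the WT livers for cholesterol synthesis and below them for fatty acid oxidation.

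The targeted gene was measured first, since it checks the labels. *Man1a2* (chr3:100562208-100685503, minus strand, GRCm38) was counted at 67.5, 40.6 and 52.5 CPM in the WT livers and at 40.4, 36.8 and 38.6 CPM in the Null livers. The ranges lay close, with the highest Null liver just below the lowest WT liver, WT liver 2. The log2 fold change was −0.47 (SE 0.17, edgeR adjusted p = 0.0809), which missed the threshold, and it was −0.50 (edgeR adjusted p = 0.105) without Null liver 1. DESeq2 placed it past the threshold at the same log2 fold change of −0.47 (adjusted p = 0.0473), as did edgeR with WT liver 2 left out (−0.64, adjusted p = 0.0288) and with upper-quartile scaling (−0.58, adjusted p = 0.0366). Without WT liver 1 it was −0.27. Counts were summed over the whole gene, so the reads of exons that remain in the Null allele are part of them. *Gm12485* overlaps *Man1a2* on the opposite strand, and the strand setting of the counting is not known.

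A gene was called higher or lower at an adjusted p under 0.05 in edgeR's quasi-likelihood test and a change of at least 1.2-fold. With 6 livers, 3856 of 14343 genes tested were called, which is 26.9% of them, with 13.5% higher and 13.4% lower in Null. With 5 livers, 3451 of 14501 were called, which is 23.8%, with 11.9% in each direction. Both comparisons called 3042 genes in the same direction and 0 in opposite directions, 21.2% of those tested with 6 livers (10.8% higher, 10.4% lower). The genotypes did not overlap in 46.6% of genes. Lack of overlap was also a condition for naming the largest rises and falls, so for those genes it adds no support. Upper-quartile scaling left 35.0% of 4100 calls higher instead of 50.1% of 3856, and moved the median log2 fold change of all genes from 0.02 to −0.09 with 6 livers and from −0.01 to −0.12 with 5. Small changes of direction in whole lists are given with that range in mind. The WT livers weighed more than any Null liver: 2150, 2268 and 1641 genes were called with 6 livers less WT liver 1, 2 or 3. Whichever 1 of the 6 livers was left out, 1471 genes stayed called. With the sex read from the counts as a term, 3032 genes were called with 6 livers, 3155 with 5 and 2672 in both, and of the 135 genes followed under every alternative *G6pc*, *Cpt1a*, *Mpo*, *Pdgfrb*, *Rxra*, *Cyp1a2*, *Bpgm*, *Cdk1*, *Bgn*, *Adgre1*, *Efnb2*, *Fabp2*, *Arhgap36* and *Casq2* were then no longer called with 6 livers. Below, genes said to be higher or lower were called in both comparisons unless the sentence says otherwise, fold changes are those of the 6 livers, and values are CPM on TMM-scaled libraries, listed in the order of livers 1, 2 and 3. Shares of reads are of total counts, without that scaling. The TMM factor was 0.873 in Null liver 3 and 0.996 to 1.082 in the other livers.

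**Figure D2:**
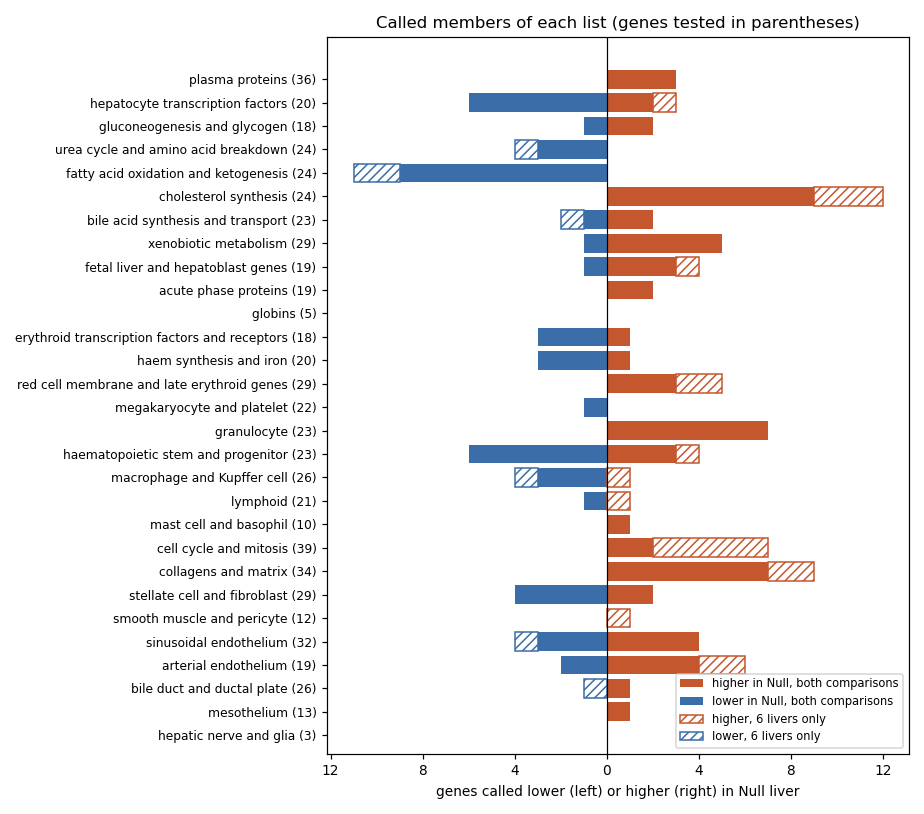
Number of genes called lower (left, blue) or higher (right, orange) in Null than in WT liver in each of 29 hepatocyte, blood-forming and stromal lists, with the number tested in parentheses. Filled bars were called with 6 livers and again without Null liver 1, and hatched bars with 6 livers only. Cholesterol synthesis reaches 9 filled calls to the right and fatty acid oxidation 9 to the left.

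Genes of cholesterol synthesis were higher in Null liver. Of 24 members tested, 9 were higher and 0 lower in both comparisons, against 10.8% of all genes higher, and the list's median log2 fold change was 0.57 with 6 livers and 0.46 with 5 (0.02 and −0.01 over all genes). The list took 0.183 ± 0.0101% of reads in WT and 0.237 ± 0.0213% in Null livers (SD, n = 3 each). *Insig1*, which encodes a sterol sensor that holds back the pathway's activator, was counted at 91.1, 95.3 and 93.7 CPM in the WT livers and at 306, 368 and 333 CPM in the Null livers. The 3 WT livers lay within a few CPM of each other and far below every Null liver, a 3.59-fold difference (log2 fold change 1.85, SE 0.12, edgeR adjusted p = 0.00164).

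*Lss*, which closes the sterol rings, was counted at 59.1, 56.7 and 51.1 CPM in the WT livers and at 142, 113 and 113 CPM in the Null livers (log2 fold change 1.14, SE 0.13, edgeR adjusted p = 0.00274). *Fdps*, an earlier enzyme that makes farnesyl diphosphate, was counted at 54.4, 38.9 and 44.4 CPM in the WT livers and at 105, 103 and 86.02 CPM in the Null livers (log2 fold change 1.09, SE 0.15, edgeR adjusted p = 0.00385). Neither gene overlapped between the genotypes. The enzymes *Dhcr7* and *Msmo1* had log2 fold changes of 1.11 and 0.73. *Stard4*, which carries cholesterol within cells, and *Srebf2*, the transcription factor that switches the pathway on, had 0.85 and 0.76. Each of the 9 had every Null liver above every WT liver, where 46.6% of all genes, called or not, did not overlap in either direction. Genes that pass the test tend to lie apart in this way, so it adds no support to the calls. *Fdft1*, *Cyp51* and *Nsdhl* passed with 6 livers but not with 5. *Sqle*, a later enzyme of the same pathway, did not follow: it was counted at 64.2, 68.4 and 59.7 CPM in the WT livers and at 66.1, 78.9 and 55.4 CPM in the Null livers, with overlapping ranges (log2 fold change 0.06, edgeR adjusted p = 0.774), and under upper-quartile scaling its sign turned to −0.05. Whichever liver was left out, 8 of the 9 stayed called, the other being *Dhcr7*, which needed WT livers 2 and 3. *Lss* has a gene on the opposite strand within its span, and the strand setting of the counting is not given in the sources used here.

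Because 9 genes of this list were called higher, the DNA before their starts is shown for the 5 called members that have an entry in the RefSeq promoter table (GRCm38.p6), each as the 250 bases before the start, read 5′ to 3′ on the strand of the gene. Capitals mark the letters CCAAT or their reverse complement, the CCAAT box, to which the factor NF-Y is known to bind. For *Dhcr7*, which has 3 starts in the table, the first start with a match is shown.
Insig1 (chr5:28071162-28071411, plus strand): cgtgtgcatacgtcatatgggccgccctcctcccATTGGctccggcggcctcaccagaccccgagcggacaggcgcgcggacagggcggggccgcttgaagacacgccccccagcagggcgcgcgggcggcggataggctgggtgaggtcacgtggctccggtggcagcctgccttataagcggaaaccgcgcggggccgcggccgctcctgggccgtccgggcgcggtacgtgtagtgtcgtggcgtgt
Lss (chr10:76531355-76531604, plus strand): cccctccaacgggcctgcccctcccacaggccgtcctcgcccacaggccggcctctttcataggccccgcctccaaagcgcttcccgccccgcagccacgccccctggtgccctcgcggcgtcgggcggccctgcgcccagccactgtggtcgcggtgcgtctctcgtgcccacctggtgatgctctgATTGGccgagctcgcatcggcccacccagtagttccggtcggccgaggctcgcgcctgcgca
Dhcr7 (chr7:143829964-143830213, plus strand): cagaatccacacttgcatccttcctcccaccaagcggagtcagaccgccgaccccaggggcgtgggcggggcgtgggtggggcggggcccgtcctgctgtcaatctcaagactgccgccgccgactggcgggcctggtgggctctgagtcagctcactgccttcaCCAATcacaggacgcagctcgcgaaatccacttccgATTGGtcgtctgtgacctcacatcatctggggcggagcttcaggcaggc
Msmo1 (chr8:64733579-64733828, minus strand): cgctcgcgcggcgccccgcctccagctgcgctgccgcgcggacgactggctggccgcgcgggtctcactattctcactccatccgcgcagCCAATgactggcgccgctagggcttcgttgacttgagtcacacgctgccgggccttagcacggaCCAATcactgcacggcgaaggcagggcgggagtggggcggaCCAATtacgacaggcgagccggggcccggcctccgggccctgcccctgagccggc
Srebf2 (chr15:82147019-82147268, plus strand): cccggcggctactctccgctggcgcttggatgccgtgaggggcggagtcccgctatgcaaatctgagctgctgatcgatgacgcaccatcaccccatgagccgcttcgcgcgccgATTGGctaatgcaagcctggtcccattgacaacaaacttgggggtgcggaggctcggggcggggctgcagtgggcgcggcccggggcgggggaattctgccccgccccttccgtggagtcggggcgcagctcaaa
All 16 listed cholesterol genes with an entry held CCAAT on either strand in the 250 bases before at least 1 start, as did 40.2% of 10837 tested genes with an entry. *Msmo1* held 3 matches, and the match nearest to a start in *Insig1* began 216 bases before it. The exact letters TCACCCCAC, a core of a sterol response element, were found in 1 of the 16 and in 0.6% of tested genes. Elements that differ from these letters by a base were not counted, so a gene without a match may still hold one. AGATAA, to which factors of the GATA family can bind, was found in 0 of 16 and 7.8%. The CCAAT motif was picked after its matches had been seen, the 16 include 11 genes that were not called, and a match is a description of the letters, not of a bound site.

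Genes of fatty acid oxidation and ketogenesis were lower in Null liver. Of 24 members, 0 were higher and 9 lower, against 10.4% of all genes, and the list took 1.26 ± 0.0755% of WT and 0.949 ± 0.110% of Null reads (SD, n = 3 each). *Cyp4a14*, a fatty acid hydroxylase that is a classic target of the receptor PPARα, was counted at 863, 1247 and 785 CPM in the WT livers and at 178, 263 and 141 CPM in the Null livers. Every Null liver was well below every WT liver, a 4.98-fold difference (log2 fold change −2.31, SE 0.28, edgeR adjusted p = 0.00292). Its neighbour *Cyp4a10* was counted at 261, 223 and 169 CPM in the WT livers and at 81.5, 73.8 and 65.96 CPM in the Null livers, again without overlap (log2 fold change −1.56, SE 0.18, edgeR adjusted p = 0.00278). Reads of these close relatives can be split in counting.

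*Cpt2*, which completes the entry of fatty acids into mitochondria, was counted at 76.1, 84.5 and 80.6 CPM in the WT livers and at 26.7, 31.9 and 40.9 CPM in the Null livers (log2 fold change −1.28, SE 0.16, edgeR adjusted p = 0.00316). The carnitine carriers *Slc25a20* and *Slc22a5*, the peroxisomal enzyme *Ehhadh* and the electron carrier enzyme *Etfdh* had log2 fold changes of −0.93, −0.91, −1.04 and −0.86. *Cpt1a*, the rate-limiting step of entry, was lower by less, with 696, 554 and 621 CPM in WT and 469, 387 and 469 CPM in Null livers (log2 fold change −0.50, edgeR adjusted p = 0.0331). *Fgf21*, a hormone that the liver secretes in fasting, was at 1.17, 1.52 and 4.56 CPM in WT livers and at 0.0284, 0.214 and 0.0648 CPM in Null livers (edgeR adjusted p = 0.00758), and since Null livers 1 and 3 lay below the level of 3 reads, no fold is given. These genes stayed called whichever liver was left out, apart from *Cpt1a*, which was called in 3 of those 6 fits. *Pdk4*, which spares glucose when fat is burned, lay the other way, at 130.2, 100 and 93.6 CPM in the WT livers and at 141, 187 and 489.5 CPM in the Null livers. It was called higher with 5 livers (1.65, edgeR adjusted p = 0.0134) and not with 6 (edgeR adjusted p = 0.0569).

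Sugar metabolism gave a small number of calls, with 2 members higher and 1 lower of 18, or 16.7% against 21.2% of all genes. *Ugp2*, which makes the precursor of glycogen, was counted at 158, 149.5 and 135 CPM in the WT livers and at 251, 346 and 267 CPM in the Null livers (log2 fold change 0.96, SE 0.15, edgeR adjusted p = 0.0056). *Pygl*, which breaks glycogen down, was counted at 246, 237 and 216 CPM in the WT livers and at 326, 498 and 428 CPM in the Null livers (log2 fold change 0.84, SE 0.17, edgeR adjusted p = 0.0113). Both were higher in every Null liver. *G6pc*, which releases glucose into the blood, was lower, at 1089, 976 and 1282 CPM in the WT livers and at 690.4, 482 and 819.7 CPM in the Null livers (log2 fold change −0.75, SE 0.21, edgeR adjusted p = 0.0335), whereas *Pck1*, the other marker enzyme of gluconeogenesis, was at 1590, 1253 and 1720 CPM in the WT livers and at 1432, 1271 and 2503 CPM in the Null livers and was not called (log2 fold change 0.19, edgeR adjusted p = 0.617). *Ugp2* was the 1 call that stood whichever liver was left out: 2 of the 3 were kept without WT liver 1, WT liver 2 or Null liver 2, and 1 without WT liver 3.

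In amino acid breakdown and the urea cycle, 3 of 24 members were lower and 0 higher, or 12.5% against 21.2% of all genes. *Gpt*, an alanine aminotransferase, was at 15.2, 15.6 and 12.97 CPM in the WT livers and at 6.495, 8.22 and 7.81 CPM in the Null livers (log2 fold change −0.96, SE 0.15, edgeR adjusted p = 0.00534), *Aass*, the first enzyme of lysine breakdown, was 1.87-fold lower and the ornithine carrier *Slc25a15* 1.74-fold lower. *Gpt* alone stood whichever liver was left out. Of the 3, 1 was kept without WT liver 2, and 2 without WT liver 1, WT liver 3 or Null liver 2. *Cps1*, which starts the urea cycle, was not called (log2 fold change 0.11, edgeR adjusted p = 0.695), nor was *Arg1*, which ends it (−0.47, edgeR adjusted p = 0.0805).

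Among hepatocyte transcription factors, 6 of 20 were lower and 2 higher in Null liver, and the median log2 fold change was −0.34 with 6 livers and −0.35 with 5. The calls are 40% of the list against 21.2% of all genes. *Onecut2*, which acts in the fate choice of hepatoblasts, was counted at 48.8, 46.97 and 55.4 CPM in the WT livers and at 11.8, 21.8 and 15.8 CPM in the Null livers. No Null liver came near the WT range (log2 fold change −1.61, SE 0.21, edgeR adjusted p = 0.00343). *Prox1*, needed for the growth of the early liver, was counted at 41.96, 30.5 and 35.8 CPM in the WT livers and at 11.9, 13.8 and 17.3 CPM in the Null livers (log2 fold change −1.33, SE 0.17, edgeR adjusted p = 0.00343). The nuclear receptors *Nr1h3*, *Nr1i3* and *Nr1h4*, which sense oxysterols, xenobiotics and bile acids, were also lower, with log2 fold changes of −1.12, −0.91 and −0.77. *Nr5a2* and *Rxra*, the shared partner of many nuclear receptors, were higher (0.62 and 0.48). *Hnf4a*, the central regulator of hepatocyte genes, was at 442, 341 and 421 CPM in the WT livers and at 412, 426 and 459 CPM in the Null livers, and its ranges overlapped (log2 fold change 0.11, edgeR adjusted p = 0.565). *Cebpa* was called higher with 5 livers (0.75, edgeR adjusted p = 0.0266) but not with 6 (edgeR adjusted p = 0.0574). *Onecut2*, *Prox1*, *Nr1h3* and *Nr1h4* stayed called whichever liver was left out, and 5 of the 8 calls were kept without WT liver 1, 2 or 3. *Prox1*, *Nr1h3* and *Nr1i3* have another gene within their span on the opposite strand.

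Plasma proteins took nearly the same share of reads, 27.2 ± 1.27% in WT and 27.8 ± 1.84% in Null livers (SD, n = 3 each), and 3 of 36 were called, all higher, a smaller share than the 21.2% of all genes. *C9*, of the complement membrane pore, was at 1.31, 1.89 and 1.02 CPM in the WT livers and at 6.52, 3.74 and 3.24 CPM in the Null livers (log2 fold change 1.68, edgeR adjusted p = 0.0139). Prothrombin, *F2*, and complement *C3* were 1.37-fold and 1.35-fold higher. The calls were fragile: 0 of the 3 were kept without WT liver 1 or 3, 1 without WT liver 2 or Null liver 2, and 2 without Null liver 3. *Alb* and *Ttr* were not called (log2 fold change 0.22 and 0.17). In the acute phase list, 2 of 19 were higher and 0 lower, and both stayed called whichever liver was left out. They are 10.5% of the list, below the share of all genes. *Saa4*, an amyloid A protein made without inflammation, was counted at 4.96, 7.18 and 5.03 CPM in the WT livers and at 24.4, 32.1 and 24.7 CPM in the Null livers, a 4.73-fold difference (log2 fold change 2.24, SE 0.19, edgeR adjusted p = 0.00201). *Crp*, which in mice responds little to inflammation, was counted at 212, 204 and 161 CPM in the WT livers and at 293, 398 and 352 CPM in the Null livers (log2 fold change 0.85, SE 0.16, edgeR adjusted p = 0.00958). *Hamp*, the iron hormone hepcidin, ranged widely within each genotype, at 157, 239 and 339 CPM in the WT livers and at 134, 35.2 and 462 CPM in the Null livers, and was not called (log2 fold change −0.22, edgeR adjusted p = 0.851). *Saa1*, the amyloid A protein that inflammation induces, was counted at 0.218, 0.217 and 0.419 CPM in the WT livers and at 0.681, 0.507 and 0.0972 CPM in the Null livers and was not called.

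Of 19 genes that mark the fetal liver, 3 were higher and 1 lower. The imprinted *Meg3* was counted at 127, 122 and 121 CPM in the WT livers and at 370, 200.4 and 272 CPM in the Null livers (log2 fold change 1.19, SE 0.21, edgeR adjusted p = 0.00791). Its neighbour *Dlk1*, a surface protein of hepatoblasts, was at 145, 117 and 142 CPM in the WT livers and at 321, 214 and 263 CPM in the Null livers (log2 fold change 0.98, SE 0.17, edgeR adjusted p = 0.00748), and *Cdkn1c*, an imprinted brake on the cell cycle, was 2.14-fold higher. *Peg3* was lower, with 344, 377 and 322 CPM in WT and 234, 181 and 207 CPM in Null livers (log2 fold change −0.75, edgeR adjusted p = 0.00803). The 4 calls are 21.1% of the list, about the share of all genes. *Afp*, the fetal counterpart of albumin, was at 21300, 26270 and 18800 CPM in the WT livers and at 20470, 22570 and 37590 CPM in the Null livers, with overlapping ranges (log2 fold change 0.28, edgeR adjusted p = 0.418), and *H19* was not called either (log2 fold change 0.14, edgeR adjusted p = 0.512). *Meg3*, *Dlk1* and *Peg3* stayed called whichever liver was left out.

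Bile acid genes gave 2 higher and 1 lower call of 23, or 13% against 21.2% of all genes. *Atp8b1*, a lipid flippase of the bile canaliculus, was counted at 34.2, 38.05 and 35.6 CPM in the WT livers and at 13.4, 13.8 and 14.3 CPM in the Null livers. The spread within each genotype was narrow and the ranges lay far apart, a 2.6-fold difference (log2 fold change −1.38, SE 0.09, edgeR adjusted p = 0.00164), and the call stood whichever liver was left out. *Cyp27a1*, of the alternative pathway of bile acid synthesis, was at 77.5, 50.2 and 55.9 CPM in the WT livers and at 90.8, 94 and 113 CPM in the Null livers (log2 fold change 0.70, SE 0.18, edgeR adjusted p = 0.0267). *Slco1a1*, an uptake carrier, was higher at low counts, with 0.218, 0.464 and 0.236 CPM in WT and 3.63, 1.602 and 1.004 CPM in Null livers (edgeR adjusted p = 0.0124). Of these 3 calls, 2 were kept without WT liver 1, WT liver 2 or Null liver 3, and 1 without WT liver 3. *Cyp7a1*, the rate-limiting enzyme of bile acid synthesis, was at 148, 106 and 109.8 CPM in the WT livers and at 124, 66.5 and 45.6 CPM in the Null livers. Null liver 1 lay within the WT range, and the gene was called lower only with 5 livers (−1.11, edgeR adjusted p = 0.00972; −0.62, edgeR adjusted p = 0.205 with 6). The bile salt export pump, *Abcb11*, was likewise called with 5 livers alone, in the higher direction (0.68, edgeR adjusted p = 0.0336).

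Among genes of xenobiotic metabolism, 5 of 29 were higher and 1 lower, which is 20.7% of them, about the 21.2% of all genes. *Cyp2c70*, which in mice makes muricholic acids, was counted at 94.6, 79.8 and 81.98 CPM in the WT livers and at 272, 399 and 334 CPM in the Null livers, a 3.92-fold difference (log2 fold change 1.97, SE 0.17, edgeR adjusted p = 0.00201). The aldehyde oxidase *Aox3* was counted at 31.3, 25.1 and 17.7 CPM in the WT livers and at 64.3, 90.1 and 89.1 CPM in the Null livers (log2 fold change 1.72, SE 0.23, edgeR adjusted p = 0.00348), and *Fmo1*, *Gsta3* and *Gstm1* had log2 fold changes of 1.11, 0.75 and 0.51. *Cyp2c70*, *Aox3* and *Fmo1* stayed called whichever liver was left out, and 3 of the 6 calls were kept without WT liver 2 or 3 and 4 without Null liver 2. *Cyp1a2*, a target of the aryl hydrocarbon receptor, was lower, at 4.45, 24.6 and 6.55 CPM in the WT livers and at 0.312, 2.11 and 0.259 CPM in the Null livers (edgeR adjusted p = 0.0267), and WT liver 2, which held reads of lung genes, was the highest. The log2 fold change of *Cyp1a2* was −3.70 with 6 livers and −2.60 without WT liver 2. Its call was lost without WT liver 2, WT liver 3 or Null liver 3. The part of lung tissue in the result was not tested. The main adult enzymes *Cyp2e1* and *Cyp3a11* were not called (log2 fold change −0.39 and −0.75, edgeR adjusted p = 0.268 and 0.0652). Members of the *Cyp2c*, *Cyp3a* and *Gst* families are alike in sequence, and their counts depend on how shared reads were assigned.

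**Figure D3:**
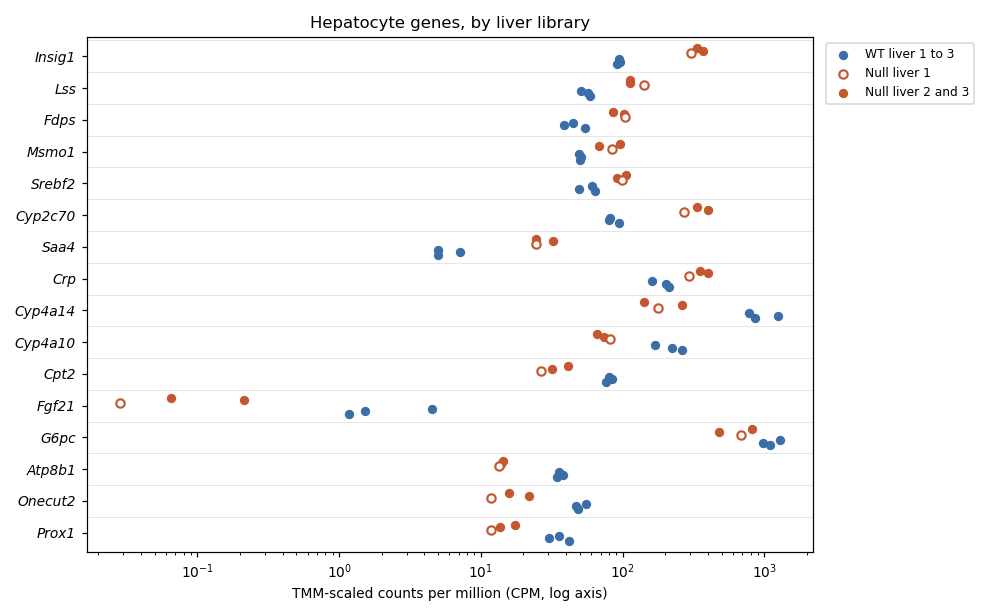
TMM-scaled CPM, on a log axis, of 16 hepatocyte genes in each liver library (blue, WT; orange, Null; open, Null liver 1). *Insig1* to *Crp* lie higher and *Cyp4a14* to *Prox1* lower in all 3 Null livers, and *Fgf21* lies below 0.25 CPM in each Null liver.

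Of 18 erythroid transcription factors and receptors, 3 were lower and 1 higher, which is 22.2% of them against 21.2% of all genes, so as a list they were called about as often as genes at large. *Klf1*, which switches on globin and membrane genes, was counted at 64.2, 44.8 and 59.04 CPM in the WT livers and at 33.1, 37.3 and 20.9 CPM in the Null livers (log2 fold change −0.88, SE 0.23, edgeR adjusted p = 0.0268). *Lmo2*, of the same transcription complex as GATA1, was counted at 64.2, 60.4 and 59.8 CPM in the WT livers and at 39.96, 41.8 and 31.98 CPM in the Null livers. The 3 WT livers lay close together and above every Null liver (log2 fold change −0.70, SE 0.12, edgeR adjusted p = 0.00711). *Myb* was 1.46-fold lower. *Foxo3*, which acts in late red cell precursors but also in hepatocytes, was higher, at 21.6, 14.1 and 17.02 CPM in the WT livers and at 34.3, 33.2 and 32.3 CPM in the Null livers (log2 fold change 0.92, SE 0.15, edgeR adjusted p = 0.00687). *Gata1* was at 43.3, 38.9 and 44.8 CPM in the WT livers and at 30.97, 38.1 and 30.7 CPM in the Null livers and missed the threshold (log2 fold change −0.35, edgeR adjusted p = 0.0615). *Lmo2* and *Foxo3* stayed called whichever liver was left out, and 2 of the 4 calls were kept without WT liver 1 or 3.

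In haem synthesis and iron, 3 of 20 were lower and 1 higher, again near the share of all genes: *Uros*, a haem synthesis enzyme, with −0.70, the mitochondrial carrier *Abcb10* with −0.65, the iron importer *Slc11a2* with −0.48 and, in the other direction, *Isca1* with 0.60 on the log2 scale. Leaving out WT liver 3 kept 0 of these 4 calls and leaving out WT liver 1 kept 1. Of 29 red cell membrane and late erythroid genes, 3 were higher and 0 lower, or 10.3% against 21.2% of all genes. *Tmod1*, which caps actin in the red cell skeleton and is also made in muscle, was at 31.4, 25.9 and 23.4 CPM in the WT livers and at 89.2, 70.4 and 38.7 CPM in the Null livers, highest in Null liver 1, and its log2 fold change fell from 1.30 to 1.02 without that liver. *Bpgm* and *Ube2o* were 1.58-fold and 1.52-fold higher. Without WT liver 2 or 3, 0 of the 3 were kept, without Null liver 2 there was 1 and without WT liver 1 there were 2. *Slc4a1*, the anion exchanger of the red cell surface, was at 1424, 1069 and 1117 CPM in the WT livers and at 1589, 1797 and 946 CPM in the Null livers, with Null liver 3 the lowest, and was not called (log2 fold change 0.26, edgeR adjusted p = 0.443). *Alas2* and *Fech*, the first and last enzymes of haem synthesis in red cells, were not called (0.35 and 0.19, edgeR adjusted p = 0.214 and 0.425). Adult globin genes cannot be used here, since *Hba-a1*, *Hba-a2*, *Hbb-bs* and *Hbb-bt* were listed at 0 in all 6 livers, in which other red cell genes were abundant. Of the 5 globin genes tested, 0 were called in either edgeR comparison.

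Granulocyte genes were higher in part. Of 23 members, 7 were higher and 0 lower, against 10.8% of all genes higher, and the list's median log2 fold change was 0.59 with 6 livers and 0.50 with 5. *Mpo* and *Elane*, enzymes of the primary granules of neutrophil precursors, were counted at 105, 116 and 137 CPM in the WT livers and at 176, 207 and 159 CPM in the Null livers (log2 fold change 0.59, SE 0.15, edgeR adjusted p = 0.0243), and at 31.6, 31.3 and 40.8 CPM in the WT livers and at 53.8, 63.6 and 47.6 CPM in the Null livers (log2 fold change 0.67, SE 0.15, edgeR adjusted p = 0.017). On TMM-scaled libraries both sets of values lay apart by genotype, though by little in Null liver 3. Scaled to total counts alone, *Mpo* overlapped, at 139 CPM in Null liver 3 and 148 CPM in WT liver 3. *Retnlg*, made by mature neutrophils, was counted at 9.303, 30.8 and 14.8 CPM in the WT livers and at 57.1, 49.6 and 41.7 CPM in the Null livers, with a wide spread among WT livers (log2 fold change 1.44, SE 0.39, edgeR adjusted p = 0.0318), at 2.04 without WT liver 2. *Mmp8* and *Fcnb*, of later granules, had log2 fold changes of 1.15 and 0.97. The eosinophil granule proteins *Epx* and *Prg2* were also higher (1.45 and 1.05). Without WT liver 1, 1 of the 7 was kept, *Prg2*, which was the call that stood whichever liver was left out, and 4 were kept without WT liver 2, WT liver 3 or Null liver 2. *S100a8*, the most abundant neutrophil gene of the list, was at 437, 987 and 684 CPM in the WT livers and at 1039, 885 and 642 CPM in the Null livers, with overlapping ranges (log2 fold change 0.28, edgeR adjusted p = 0.509), and the list's share of reads was 0.315 ± 0.0870% in WT and 0.367 ± 0.0987% in Null livers (SD, n = 3 each).

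Stem and progenitor genes changed in both directions, with 6 of 23 lower and 3 higher, or 39.1% against 21.2% of all genes. *Hlf*, a transcription factor of haematopoietic stem cells that is also made by hepatocytes, was counted at 67.3, 51.5 and 61.2 CPM in the WT livers and at 23.4, 27.9 and 20.99 CPM in the Null livers. WT livers lay at more than all Null livers by a wide margin (log2 fold change −1.32, SE 0.14, edgeR adjusted p = 0.00261). *Lyl1* was counted at 25.6, 18.9 and 28.97 CPM in the WT livers and at 13.9, 10.7 and 12.2 CPM in the Null livers (log2 fold change −0.999, SE 0.18, edgeR adjusted p = 0.00818) and *Erg* at 14.7, 14.9 and 15.3 CPM in the WT livers and at 9.05, 7.29 and 7.19 CPM in the Null livers (log2 fold change −0.93, SE 0.14, edgeR adjusted p = 0.00464). These factors, which endothelial cells share with blood progenitors, were lower without overlap. *Mecom*, *Meis1* and *Cd48* had log2 fold changes of −1.07, −0.82 and −0.71. Higher were *Kit*, the receptor for stem cell factor, at 23.03, 18.9 and 18.4 CPM in the WT livers and at 28.4, 25.8 and 33.8 CPM in the Null livers (log2 fold change 0.54, SE 0.14, edgeR adjusted p = 0.0267), and *Runx1* and *Cdk6* (0.67 and 0.85). *Cd34* stood out in Null liver 1, at 13.5, 18.8 and 17.2 CPM in the WT livers and at 34.8, 11.3 and 15.1 CPM in the Null livers, and its log2 fold change turned from 0.31 to −0.32 without that liver; it was not called either way. *Hlf*, *Lyl1* and *Erg* stayed called whichever liver was left out, and 5 of the 9 were kept without WT liver 1 or 2, 6 without WT liver 3. *Lyl1*, *Mecom*, *Meis1*, *Runx1* and *Cdk6* have a gene on the opposite strand within their span.

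Of 26 macrophage and Kupffer cell genes, 3 were lower and 0 higher, which is 11.5% of them against 10.4% of all genes lower, and these 3, each of which has a part in iron recycling, stayed called whichever liver was left out. *Spic*, the transcription factor that sets up red pulp and other iron-recycling macrophages, was counted at 26.8, 16.2 and 25.5 CPM in the WT livers and at 5.45, 3.82 and 7.71 CPM in the Null livers, a 4.04-fold difference (log2 fold change −2.02, SE 0.29, edgeR adjusted p = 0.0046). *Hmox1*, which opens haem and frees its iron, was counted at 363, 280.3 and 443 CPM in the WT livers and at 104, 111 and 174 CPM in the Null livers (log2 fold change −1.48, SE 0.24, edgeR adjusted p = 0.00661). *Slc40a1*, ferroportin, which exports the iron, was counted at 306, 359 and 343 CPM in the WT livers and at 161, 198 and 125 CPM in the Null livers (log2 fold change −1.06, SE 0.18, edgeR adjusted p = 0.00687). In each case the lowest WT liver was above the highest Null liver. The last of these genes and *Hmox1* are also made by hepatocytes and red cell precursors. *Adgre1*, which encodes F4/80, lay the other way, at 43.7, 35.4 and 39.3 CPM in the WT livers and at 57.3, 68.3 and 46.4 CPM in the Null livers, called with 6 livers (edgeR adjusted p = 0.0387) and not with 5 (edgeR adjusted p = 0.0604). *Clec4f*, which marks Kupffer cells, was at 99.3, 94.2 and 85.99 CPM in the WT livers and at 100.4, 142 and 102 CPM in the Null livers (log2 fold change 0.30, edgeR adjusted p = 0.19), and *Csf1r*, the receptor by which macrophages survive, was at 137, 119.7 and 119 CPM in the WT livers and at 117, 169 and 107 CPM in the Null livers (log2 fold change 0.06, edgeR adjusted p = 0.822); neither was called. The list took 0.229 ± 0.0150% of WT and 0.173 ± 0.0260% of Null reads (SD, n = 3 each), and the abundant *Hmox1* and *Slc40a1* are part of that share. Its median log2 fold change was 0.04 with 6 livers and 0.09 with 5, so the lower share did not extend to most members.

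Among 21 lymphoid genes 1 was lower and 0 higher in both comparisons. The single calls of the lymphoid, mast cell and platelet lists are 4.76%, 10% and 4.55% of each, against 21.2% of all genes. *Ms4a1*, which encodes the B cell protein CD20, was counted at 4.802, 4.18 and 5.34 CPM in the WT livers and at 1.48, 0.481 and 0.648 CPM in the Null livers, and the call stood whichever liver was left out (log2 fold change −2.46, SE 0.41, edgeR adjusted p = 0.00661). Without Null liver 1 its log2 fold change was −3.08. *Cd79a*, of the B cell receptor, was at 18.2, 13.8 and 18.9 CPM in the WT livers and at 14.3, 11.8 and 9.27 CPM in the Null livers. It and *Cd79b*, *Vpreb3* and *Il7r* were called lower with 5 livers alone (log2 fold changes −0.68, −0.63, −0.78 and −0.67), while *Vpreb1*, of B cell precursors, was called in neither (−0.29). Of 10 mast cell and basophil genes, 1 was higher, *Hdc*, the histamine-forming enzyme, at 4.56, 4.74 and 5.08 CPM in the WT livers and at 14.7, 10.98 and 12.5 CPM in the Null livers (log2 fold change 1.41, SE 0.16, edgeR adjusted p = 0.00266), and it stayed called whichever liver was left out. The mast cell protease *Cpa3* was at 1.55, 2.17 and 1.83 CPM in the WT livers and at 6.21, 1.74 and 1.75 CPM in the Null livers, so that Null liver 1 alone stood out, and neither it nor the basophil protease *Mcpt8* (−0.01) was called. Of 22 megakaryocyte and platelet genes, 1 was lower, *Mrvi1* (log2 fold change −0.58, edgeR adjusted p = 0.0335), a call lost without WT liver 1, 2 or 3 or without Null liver 2. *Pf4*, platelet factor 4, was at 75.3, 92.2 and 82.2 CPM in the WT livers and at 92.4, 84.4 and 66.7 CPM in the Null livers, with overlapping ranges (log2 fold change −0.04, edgeR adjusted p = 0.876), and *Itga2b* was not called either (log2 fold change 0.15, edgeR adjusted p = 0.536).

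Cell cycle genes lay above WT in Null livers 1 and 2 and close to WT in Null liver 3. Of 39 members, 7 were called higher with 6 livers and 2 in both comparisons, *Cenpf* and *Cdk1*, with 0 lower. The 2 are 5.13% of the list, against 21.2% of all genes. *Mki67*, found in all dividing cells, was at 493, 401 and 414 CPM in the WT livers and at 699.8, 810 and 510.2 CPM in the Null livers (log2 fold change 0.63, edgeR adjusted p = 0.0408, and 0.0683 with 5 livers). *Cdk1*, the kinase of mitosis, was at 80.4, 79.6 and 80.3 CPM in the WT livers and at 117, 125 and 94.2 CPM in the Null livers (log2 fold change 0.49, SE 0.13, edgeR adjusted p = 0.0278). *Top2a* was not called (log2 fold change 0.26, edgeR adjusted p = 0.178). Neither of the 2 calls held without WT liver 1, 2 or 3, 1 held without Null liver 2, and with Null liver 3 left out of both comparisons 11 were called in each. The list took 0.384%, 0.438% and 0.272% of reads in Null livers 1, 2 and 3, and 0.295% to 0.328% in WT livers. Null liver 3 was also the lowest for the red cell list, with 0.375% of reads, against 0.481% to 0.596% in WT and 0.578% and 0.676% in Null livers 1 and 2.

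**Figure D4:**
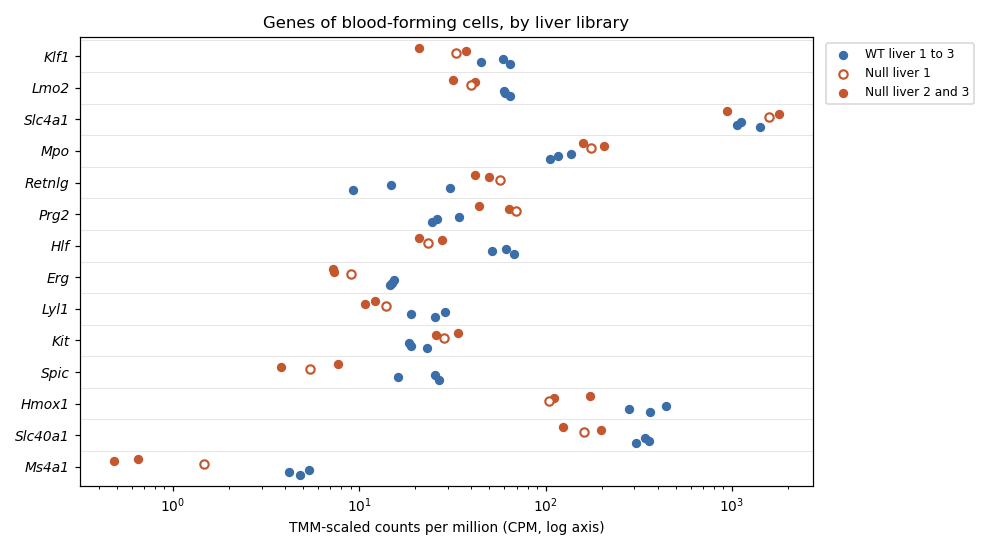
TMM-scaled CPM, on a log axis, of 14 genes of blood-forming cells and macrophages in each liver library (blue, WT; orange, Null; open, Null liver 1). *Spic*, *Hmox1*, *Slc40a1*, *Hlf*, *Erg*, *Lyl1* and *Ms4a1* lie lower in all 3 Null livers, *Mpo*, *Retnlg*, *Prg2* and *Kit* higher, and the *Slc4a1* ranges overlap.

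Matrix genes were higher in part, and the size of the change differed between members with and without Null liver 1. The list took 0.567% to 0.637% of reads in WT livers and 1.15%, 0.762% and 1.04% in Null livers 1, 2 and 3, and its median log2 fold change was 0.67 with 6 livers and 0.22 with 5. Of 34 members, 7 were higher and 0 lower in both comparisons, with 9 higher with 6 livers and 8 with 5, against 10.8% of all genes higher in both. *Fn1*, fibronectin, which hepatocytes secrete into the plasma, was counted at 3089, 2803 and 2939 CPM in the WT livers and at 4838, 4164 and 7779 CPM in the Null livers, highest in Null liver 3 (log2 fold change 0.93, SE 0.23, edgeR adjusted p = 0.0224). This gene alone made up a large part of the list's share of reads. Scaled to total counts alone, it was at 3270, 2810 and 3180 CPM in WT and at 4820, 4150 and 6790 CPM in Null livers. The basement membrane genes *Lamb1*, *Nid1*, *Col4a1* and *Col18a1* had log2 fold changes of 0.72, 0.65, 0.55 and 0.71. *Lamb1*, a laminin chain, was at 25.04, 25.2 and 23.97 CPM in the WT livers and at 45.01, 36 and 41.3 CPM in the Null livers (log2 fold change 0.72, SE 0.11, edgeR adjusted p = 0.00474), and *Col14a1*, of fibrils, at 101, 80.1 and 93.7 CPM in the WT livers and at 162, 146 and 136 CPM in the Null livers (log2 fold change 0.69, SE 0.13, edgeR adjusted p = 0.00908). These 2 stayed called whichever liver was left out. The proteoglycan *Bgn* was at 72.5, 66.5 and 75.2 CPM in the WT livers and at 171, 94.9 and 94.96 CPM in the Null livers, and its log2 fold change was 0.75 with 6 livers and 0.41 with 5. The interstitial collagens were another matter: *Col1a1* was at 56.5, 59.9 and 76.7 CPM in the WT livers and at 453, 79.5 and 85.8 CPM in the Null livers, and *Col3a1* at 153, 218 and 163 CPM in the WT livers and at 795, 153 and 185 CPM in the Null livers. Null liver 1 alone, in which muscle genes were counted, stood above the rest. Without it the log2 fold changes were 0.36 and −0.07, against 1.68 and 1.08 with it, and neither gene was called in either comparison. Without WT liver 1 or 2, 3 of the 7 calls were kept, and without WT liver 3, 2.

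Of 29 genes of stellate cells and fibroblasts, 4 were lower and 2 higher. *Lrat*, which esterifies vitamin A for storage and marks quiescent stellate cells, was counted at 13.6, 20.8 and 12.8 CPM in the WT livers and at 5.73, 7.48 and 8.07 CPM in the Null livers, a 2.22-fold difference (log2 fold change −1.15, SE 0.23, edgeR adjusted p = 0.0112). *Tcf21*, a transcription factor of stellate and other mesenchymal cells, was counted at 7.01, 8.298 and 7.83 CPM in the WT livers and at 3.49, 3.23 and 4.41 CPM in the Null livers (log2 fold change −1.06, SE 0.18, edgeR adjusted p = 0.00733). *Cxcl12*, the chemokine that holds blood stem cells in their niche, was counted at 252, 295 and 261 CPM in the WT livers and at 120, 160.2 and 123 CPM in the Null livers (log2 fold change −1.002, SE 0.15, edgeR adjusted p = 0.00477). For these 3 every Null liver was below every WT liver, and the calls stood whichever liver was left out. *Pdgfrb*, the receptor that marks stellate cells and pericytes, was lower by less, at 17.9, 16.5 and 15.9 CPM in the WT livers and at 13.4, 12.3 and 12.5 CPM in the Null livers (log2 fold change −0.39, edgeR adjusted p = 0.0334). *Reln*, also made by quiescent stellate cells, lay the other way, at 76.7, 83.04 and 74.5 CPM in the WT livers and at 96.4, 118 and 144 CPM in the Null livers (log2 fold change 0.62, SE 0.16, edgeR adjusted p = 0.0253), as did *Bambi*, a decoy receptor of TGFβ, at 8.32, 6.099 and 5.76 CPM in the WT livers and at 12.7, 11.5 and 24.3 CPM in the Null livers (log2 fold change 1.26, edgeR adjusted p = 0.0223). The 6 calls are 20.7% of the list against 21.2% of all genes. *Dcn*, which fibroblasts make, was at 203, 246 and 232 CPM in the WT livers and at 223, 225 and 255 CPM in the Null livers and was not called (log2 fold change 0.04, edgeR adjusted p = 0.819). Without WT liver 2 or 3, 3 of the 6 calls were kept, and 4 were kept without WT liver 1 or Null liver 2. *Lrat*, *Tcf21* and *Reln* have a gene on the opposite strand within their span.

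In smooth muscle and pericytes, 0 of 12 genes were called in both edgeR comparisons. *Acta2* was at 17.1, 18.8 and 16.9 CPM in the WT livers and at 43.8, 21.7 and 20.1 CPM in the Null livers, again highest in Null liver 1 (log2 fold change 0.70, edgeR adjusted p = 0.106), and *Myh11* was at low counts in all livers (log2 fold change 0.28, edgeR adjusted p = 0.574). *Notch3* was called higher with 6 livers only (log2 fold change 0.79). The list's share of reads was 0.0119% to 0.0123% in WT livers, 0.0974% in Null liver 1, and 0.0141% and 0.0115% in Null livers 2 and 3.

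Of 32 sinusoidal endothelial genes, 4 were higher and 3 lower, which is 21.9% of them and about the share of all genes, and the list's share of reads was 0.139 ± 0.0127% in WT and 0.133 ± 0.0101% in Null livers (SD, n = 3 each). *Gpr182*, a chemokine-scavenging receptor of sinusoidal cells, was counted at 39.5, 34.7 and 48.3 CPM in the WT livers and at 15.5, 15.2 and 20.2 CPM in the Null livers, without overlap (log2 fold change −1.27, SE 0.16, edgeR adjusted p = 0.00343). *Fcgr2b*, the receptor by which these cells clear immune complexes, was at 16.9, 27.7 and 23.2 CPM in the WT livers and at 12.1, 13.9 and 14.2 CPM in the Null livers (log2 fold change −0.75, edgeR adjusted p = 0.0226), and the mannose receptor *Mrc1*, which binds mannose-ended glycoproteins, at 91.1, 108 and 105 CPM in the WT livers and at 70.1, 77.9 and 69.3 CPM in the Null livers (log2 fold change −0.48, edgeR adjusted p = 0.0184). These 3 scavenger or clearance receptors were lower. The scavenger receptor *Stab2* was not, at 90.9, 83.5 and 86.5 CPM in the WT livers and at 69.4, 103 and 83.8 CPM in the Null livers (log2 fold change −0.03, edgeR adjusted p = 0.904), nor was *Lyve1*, at 111, 116 and 125 CPM in the WT livers and at 139.8, 115 and 177 CPM in the Null livers (log2 fold change 0.29, edgeR adjusted p = 0.22). Among the higher members, *Pecam1*, which encodes CD31 and is made by most endothelium, was counted at 43.3, 42.9 and 42.2 CPM in the WT livers and at 67.02, 58.96 and 57.7 CPM in the Null livers (log2 fold change 0.52, SE 0.10, edgeR adjusted p = 0.00872), and the junction gene *Cdh5* at 55.5, 52.98 and 56.3 CPM in the WT livers and at 73.7, 79.1 and 78.7 CPM in the Null livers (log2 fold change 0.49, SE 0.09, edgeR adjusted p = 0.00839). The VEGF receptor *Flt1* and the cytokine receptor chain *Il6st*, which many cell types make, were 1.69-fold and 2.02-fold higher. *Gpr182*, *Pecam1* and *Cdh5* stayed called whichever liver was left out, and 3 of the 7 calls were kept without WT liver 2 or 3.

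Among 19 genes of arterial endothelium, 4 were higher and 2 lower, or 31.6% against 21.2% of all genes. *Gja5*, the gap junction gene of arteries, was counted at 3.85, 2.48 and 2.99 CPM in the WT livers and at 1.02, 0.374 and 0.162 CPM in the Null livers (log2 fold change −2.56, SE 0.56, edgeR adjusted p = 0.0157). Without Null liver 1 it was −3.48, and the call was lost without WT liver 1 or 3. *Nrp1*, a co-receptor for VEGF and semaphorins, was counted at 24.6, 25.6 and 24.7 CPM in the WT livers and at 16.99, 15.7 and 14.6 CPM in the Null livers, with narrow ranges (log2 fold change −0.67, SE 0.10, edgeR adjusted p = 0.00517). *Tmem100*, a target of BMP signals in endothelium, was counted at 1.77, 2.105 and 2.12 CPM in the WT livers and at 7.74, 5.1 and 10.9 CPM in the Null livers (log2 fold change 1.98, SE 0.29, edgeR adjusted p = 0.00482). *Edn1*, the vasoconstrictor endothelin, was counted at 1.77, 1.21 and 1.702 CPM in the WT livers and at 3.54, 7.02 and 4.83 CPM in the Null livers (log2 fold change 1.71, SE 0.30, edgeR adjusted p = 0.00791). *Notch1* and *Vwf* had log2 fold changes of 0.59 and 0.72. *Efnb2*, a marker of arteries, was called higher with 6 livers only (0.70, edgeR adjusted p = 0.0419, and 0.0835 with 5). With 5 livers, *Dll4* and *Sox18*, both of arterial and early endothelium, were called lower as well (−0.95 and −1.09), and with 6 they were not (−0.70 and −0.79). *Nrp1*, *Tmem100* and *Edn1* stayed called whichever liver was left out, and 3 of the 6 calls were kept without WT liver 3. *Gja5*, *Edn1* and *Notch1* have a gene on the opposite strand within their span.

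Bile duct genes, in which the human disease that led to the study arises, gave 1 call of 26, or 3.85% against 21.2% of all genes. *Klf5*, a transcription factor of ducts and other epithelia, was counted at 1.34, 0.712 and 1.36 CPM in the WT livers and at 3.83, 3.02 and 2.495 CPM in the Null livers, and stayed called whichever liver was left out (log2 fold change 1.45, SE 0.31, edgeR adjusted p = 0.0155). *Sox9*, which marks the ductal plate, was at 2.37, 1.18 and 1.94 CPM in the WT livers and at 3.01, 1.495 and 4.79 CPM in the Null livers (log2 fold change 0.75, edgeR adjusted p = 0.239), and *Epcam* was at 4.77, 6.32 and 4.98 CPM in the WT livers and at 6.55, 4.62 and 12.1 CPM in the Null livers (log2 fold change 0.53, edgeR adjusted p = 0.275). The keratins *Krt19* and *Krt7* were at 5.18, 7.93 and 5.79 CPM in the WT livers and at 7.09, 4.19 and 9.53 CPM in the Null livers, and at 6.22, 9.103 and 6.37 CPM in the WT livers and at 5.67, 3.498 and 8.59 CPM in the Null livers, and were not called (log2 fold change 0.14 and −0.29, edgeR adjusted p = 0.763 and 0.536). *Sox9*, *Epcam*, *Krt19* and *Krt7* were at low levels, and their ranges overlapped between the genotypes. The duct list took 0.144 ± 0.00808% of WT and 0.121 ± 0.00751% of Null reads (SD, n = 3 each). Its median log2 fold change was 0.15 with 6 livers and 0.10 with 5, so the lower share did not extend to most members. Of 13 genes of the mesothelium, which covers the liver, 1 was called, complement *C3*, which hepatocytes also secrete, and *Wt1* and *Upk3b* were not (0.29 and 0.24). Of 12 nerve and glia genes 3 had enough reads to be tested and 0 were called in either edgeR comparison.

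**Figure D5:**
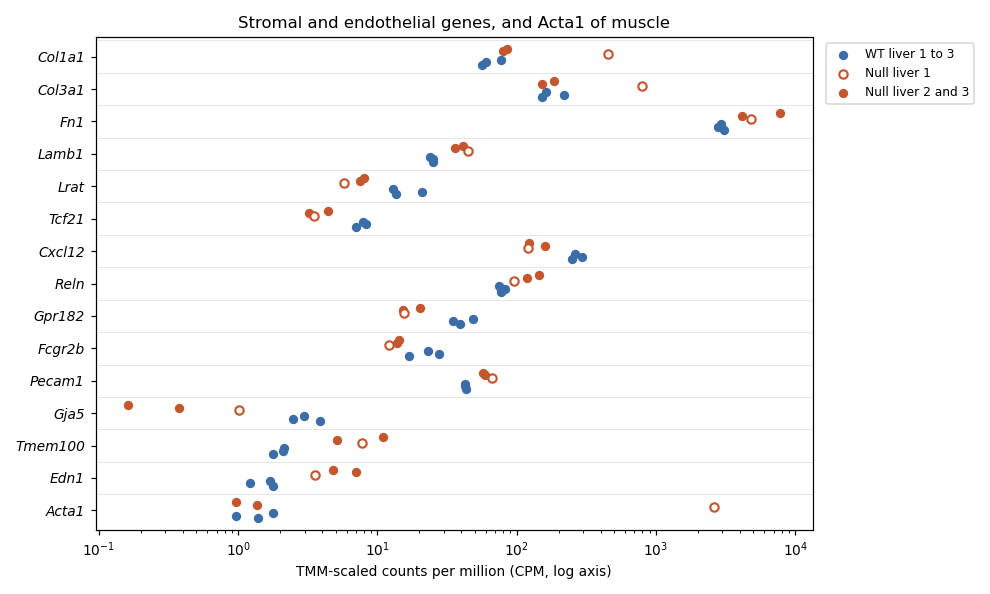
TMM-scaled CPM, on a log axis, of 14 matrix, stellate and endothelial genes and of the muscle actin *Acta1* in each liver library (blue, WT; orange, Null; open, Null liver 1). For *Col1a1*, *Col3a1* and *Acta1* the open point alone lies apart, whereas for *Lrat*, *Tcf21*, *Cxcl12* and *Gpr182* it lies with the other Null livers.

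Over all genes, the 10 largest rises and falls were also read, under the condition that every Null liver lay beyond every WT liver. *Rgs16*, which curbs G-protein signals, was counted at 12.5, 9.78 and 16.8 CPM in the WT livers and at 105, 86.9 and 328 CPM in the Null livers (log2 fold change 3.73, SE 0.54, edgeR adjusted p = 0.00464). *Foxq1*, a forkhead transcription factor, was counted at 9.79, 7.74 and 12.6 CPM in the WT livers and at 84.7, 55.3 and 134 CPM in the Null livers (log2 fold change 3.18, SE 0.34, edgeR adjusted p = 0.00248), and the kinase *Map3k6* at 6.602, 3.81 and 6.55 CPM in the WT livers and at 41.6, 35.6 and 84.1 CPM in the Null livers (log2 fold change 3.25, SE 0.38, edgeR adjusted p = 0.00285). Null liver 3 was the highest for each of these genes. *Setdb2*, a histone methyltransferase family member that glucocorticoids are known to induce in liver, was counted at 61.6, 20.7 and 25.04 CPM in the WT livers and at 296, 234 and 354 CPM in the Null livers (log2 fold change 3.04, SE 0.42, edgeR adjusted p = 0.00409). *Hsd3b6*, of steroid synthesis, *Rasd2*, *Doc2b* and *AF529169* rose from low levels, with log2 fold changes of 3.23, 3.77, 4.20 and 4.43. Of these rises *Doc2b* lost its call without WT liver 2 or 3. Some sizes moved with 1 library: without WT liver 1 *Setdb2*, *Rasd2* and *AF529169* were at 3.68, 4.41 and 5.43, without WT liver 2 *Hsd3b6* was at 3.93, and without Null liver 3 *Rgs16*, *Doc2b* and *AF529169* were at 2.88, 3.39 and 3.78. The remaining pair, *Arhgap36* and *Casq2*, were raised mainly in Null liver 1, the liver with muscle RNA: *Casq2*, a calcium-binding protein of heart and slow muscle, was at 1.31, 1.98 and 1.05 CPM in the WT livers and at 134, 3.04 and 3.402 CPM in the Null livers, and *Arhgap36* was at 0.682, 0.433 and 0.655 CPM in the WT livers and at 66.7, 1.36 and 1.91 CPM in the Null livers. Without that liver their log2 fold changes were 1.16 and 1.46, against 5.02 and 5.29 with it. Both lost their call without WT liver 1, 2 or 3.

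Among the largest falls, *Inhbe*, a hepatocyte activin chain, was counted at 88.2, 97.8 and 108 CPM in the WT livers and at 1.13, 8.999 and 17.5 CPM in the Null livers (log2 fold change −3.42, SE 0.75, edgeR adjusted p = 0.0161), lowest in Null liver 1. *Sgk2*, a kinase related to the glucocorticoid-induced *Sgk1*, was counted at 32, 34.8 and 33.4 CPM in the WT livers and at 6.07, 4.97 and 2.79 CPM in the Null livers (log2 fold change −2.85, SE 0.26, edgeR adjusted p = 0.00201). *Hdhd3* was counted at 14.4, 27.5 and 19.6 CPM in the WT livers and at 0.596, 1.76 and 0.81 CPM in the Null livers (log2 fold change −4.26, SE 0.43, edgeR adjusted p = 0.0022). The ranges of these 3 genes lay apart, as the rule that picked them required. *Inhbe* lost its call without WT liver 2 or 3 and was at −4.26 without Null liver 3, and *Hdhd3* was at −4.89 without Null liver 2. *Dio1*, the hepatic enzyme that activates thyroid hormone, was counted at 2.32, 4.89 and 3.12 CPM in the WT livers and at 0.454, 0.828 and 0.227 CPM in the Null livers (log2 fold change −2.75, SE 0.48, edgeR adjusted p = 0.00765). *Klhdc7a*, *Car7* and *Tmie* had log2 fold changes of −2.999, −2.69 and −2.56, and *Tmie* was at −3.29 without Null liver 2. *Cyp1a1*, like *Cyp1a2* a target of the aryl hydrocarbon receptor, was at 1.25, 10 and 2.17 CPM in WT livers and at 0.0284, 0.0534 and 0 CPM in Null livers (edgeR adjusted p = 0.00623). All Null values lay under the level of 3 reads, so no fold is given, and WT liver 2 was again the highest. The *Cyp1a1* call stood whichever liver was left out.

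Lists of other tissues served to check the dissection. Of 20 skeletal muscle genes tested, 1 was called in both comparisons, the calcium pump *Atp2a1*, at 0.218, 0.279 and 0.288 CPM in the WT livers and at 400.2, 0.721 and 0.778 CPM in the Null livers, and its log2 fold change was 1.51 with 5 livers. The list's median log2 fold change was 6.82 with 6 livers and −0.20 with 5. In the adrenal list, *Hsd3b1* and *Scarb1*, which the liver also makes, were higher (1.70 and 0.60), while *Cyp11a1*, which defines the adrenal cortex, was near the limit of counting, at 0.3001, 0.464 and 0.393 CPM in the WT livers and at 0.255, 0.294 and 0.227 CPM in the Null livers. *Hsd3b1* and *Hsd3b6* are close relatives whose reads can be split. *Fabp2*, a fatty acid carrier of intestine, was lower, at 5.59, 13.2 and 8.905 CPM in the WT livers and at 4.17, 3.204 and 2.85 CPM in the Null livers (log2 fold change −1.43, edgeR adjusted p = 0.0171), a call lost without WT liver 2 or 3. The embryonic myosin *Myh3* had 6531 reads in Null liver 1 and at most 1 in any other liver, and the heart myosin *Myh6* had 153 there and 1 to 12 elsewhere. Of the heart, pancreas, kidney, brown fat and lung lists, 0 of the genes tested were called in both edgeR comparisons, *Myl7*, *Cela2a* and *Cidea* included (−0.11, 0.77 and 1.72), and of the lung genes *Sftpa1* was called lower with 6 livers only (−1.87).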

How the data were processed

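The authors prepared stranded, polyadenylated RNA libraries from whole newborn liver and deposited raw counts, which are integers for each of 24421 gene symbols and carry no normalization. STAR 2.5.2a, FastQC, DESeq2 and the build mm10 are named in the submitters' processing notes, and the counting program and its strand setting are not given in the sources used here. Genes on the opposite strand are pointed out above for part of the genes only. *Ugp2*, *Pygl*, *Lmo2*, *Ms4a1*, *Gpr182*, *Mpo* and *Fn1*, among others, overlap one as well. Spreadsheet software had turned 27 symbols into dates, which held at most 0.251% of a library's counts. Positions came from GENCODE M21 on GRCm38, in which 95.4% of symbols had 1 position. There were 0 other columns of per-sample values.

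Counts were tested in R 4.3.3 with edgeR 4.0.16: filterByExpr, TMM factors, the quasi-likelihood test and Benjamini-Hochberg adjustment over all genes tested. All adjusted p-values are from this test unless DESeq2 1.42.0 is named. SE was derived from each log2 fold change and its F statistic. The exact permutation test of log2(CPM + 0.5) cannot go below p = 0.1 with 3 libraries against 3, so it is not given per gene. No pair of libraries of the same genotype agreed within counting noise (lowest chi-square per gene 24). In data simulated with a log2 fold change of 2, edgeR called 185 of 196 changed genes tested with 6 livers (94.4%, 18 false calls) and 183 of 196 with 5 (93.4%, 16 false calls). That simulation changed 200 genes, all by that size, whereas 26.9% of genes were called in the 6 livers. The shares recovered and the false calls therefore do not carry over to the smaller changes reported here.

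The gene lists and the comparisons, and the doubt about Null liver 1, were chosen with earlier results of these data known. Of 785 listed genes, 781 were matched, 3 of them under an older symbol. Lists are described by counts and medians, with no set test. Named genes were *Man1a2*, the 2 defining members of each list, the 2 largest rises and falls of each hepatocyte, blood-forming and stromal list, and the 10 largest rises and falls over all genes. The last 2 kinds were taken among genes called in both comparisons, without overlap and with at least 1 log2 CPM on average, and those over all genes leave out predicted genes and genes on the lists of other tissues. Some genes that this rule picks are not reported here. Other genes were named after their values had been seen. Alternatives were DESeq2, 4 other scalings, 2 other filters on low counts, no minimum fold change, liver and lung in 1 fit, the replicate number as a block, each library left out and, added after the data were seen, sex read from *Xist* and *Ddx3y*.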

Additional observations from a re-analysis of the deposited data

How the results depend on the processing

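Replicate numbers are shared between genotypes only as labels: the pups differ, and the correlation of deviations between same-numbered livers was −0.029, −0.001 and 0.161, so the numbers do not pair them. With the replicate number as a block, 3304 genes were called with 6 livers, 3191 with 5 and 2584 in both (3856, 3451 and 3042 without it). With liver and lung in 1 fit the counts were 2123, 1245 and 1185, and of 135 named genes followed under that setting 45 lost the call with 6 livers. With DESeq2 the counts were 4530, 3937 and 3571. Leaving out 1 library gave 1641 to 3451, 1566 to 3525 and 1258 to 2581; without WT liver 1, 2 or 3 they were 2150, 2268 and 1641 with 6 livers less that library, 2112, 2253 and 1566 with 5 and 1745, 1831 and 1258 in both, and without Null liver 3 they were 1909 with 5 and 1653 in both. *Man1a2* passed the threshold with DESeq2 (−0.47) and with upper-quartile factors (−0.58), and lay between −0.64 and −0.27 when 1 library was left out.

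In the lists, cholesterol synthesis held 9 to 12 called genes, fatty acid oxidation 8 to 11, macrophages 3 to 4, hepatocyte transcription factors 7 to 11, stem and progenitor genes 7 to 10, granulocytes 4 to 7, matrix 5 to 10, stellate cells 5 to 6, sinusoidal endothelium 5 to 8 and arterial endothelium 4 to 10 under the alternatives with liver libraries alone and none left out. With liver and lung in 1 fit they held 4, 4, 1, 0, 1, 0, 1, 1, 2 and 1. The cause of that fall was not tested.

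Signs turned only among genes that were not called. *Sqle* was at −0.05 with upper-quartile factors, and *Sqle*, *Mcpt8* and *Myl7* at −0.02, 0.07 and 0.04 with sex as a term. With each library left out in turn, log2 fold changes ranged for *Vpreb1* from −0.29 to 0.08, *Stab2* from −0.20 to 0.10, *Hamp* from −1.53 to 0.27, *Cd34* from −0.32 to 0.58, *Cpa3* from −0.08 to 1.10, *Mcpt8* from −0.20 to 0.11, *Col3a1* from −0.07 to 1.44, *Upk3b* from −0.19 to 0.42, *Acta1* from −0.24 to 9.89, *Myl7* from −0.90 to 0.34, *Pf4* from −0.14 to 0.09, *Sftpc* from −5.19 to 1.57, *Sqle* from −0.10 to 0.18, *Cps1* from −0.05 to 0.23, *Pck1* from −0.17 to 0.36 and for *Afp* from −0.04 to 0.45. With 6 livers, DESeq2's size factors, TMM without the most abundant or the muscle and heart genes, and no minimum fold change altered no call of the 135 genes followed. In both comparisons, DESeq2's size factors moved the stellate list from 6 calls to 5, haem synthesis from 4 to 3, red cell membrane from 3 to 4 and matrix from 7 to 8. Depth limits genes near the level of 3 reads, 0.0798 to 0.0930 CPM, and 3 libraries per genotype limit all single-gene calls.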

Other observations

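A pair of further lists was written after the others and is described without a test of the list. Of 20 genes of fat synthesis, 7 were higher and 3 lower in both comparisons, against 10.8% and 10.4% of all genes, and the median log2 fold change was 0.29 with 6 livers and 0.34 with 5. *Scd2*, a desaturase that makes monounsaturated fatty acids and is abundant in the fetal liver, was counted at 65.6, 60.5 and 61.97 CPM in the WT livers and at 230.1, 293 and 236 CPM in the Null livers. The WT livers lay within a narrow range and every Null liver was far above it (log2 fold change 2.01, SE 0.13, edgeR adjusted p = 0.00164). *Scd1*, its adult counterpart, was counted at 63.4, 36.3 and 30.9 CPM in the WT livers and at 163, 247 and 118 CPM in the Null livers (log2 fold change 2.01, SE 0.35, edgeR adjusted p = 0.00739), though reads of these close relatives can be split. *Srebf1*, the transcription factor that switches fat synthesis on, was counted at 41.3, 35.7 and 45.2 CPM in the WT livers and at 99.8, 116 and 91.3 CPM in the Null livers (log2 fold change 1.33, SE 0.13, edgeR adjusted p = 0.0022). *Fasn*, the fatty acid synthase, was counted at 48.97, 30.96 and 49.2 CPM in the WT livers and at 63.3, 79.7 and 112 CPM in the Null livers, with Null liver 3 the highest (log2 fold change 0.98, SE 0.25, edgeR adjusted p = 0.0263). *Lpin1*, *Elovl6* and *Acaca* had log2 fold changes of 2.23, 0.997 and 0.52. Other genes of the list lay the other way: *Agpat2*, an acyltransferase on the way to stored fat, was counted at 157, 211 and 209.9 CPM in the WT livers and at 61.6, 104 and 66.7 CPM in the Null livers (log2 fold change −1.31, SE 0.23, edgeR adjusted p = 0.00735), and *Dgat1*, which completes triglycerides, and *Me1*, which supplies reducing power, had log2 fold changes of −0.64 and −0.76. *Acly*, *Dgat2* and *Mlxipl* were not called. With 6 livers less 1, *Scd2*, *Scd1*, *Srebf1*, *Agpat2* and *Dgat1* stayed called whichever liver was left out. *Fasn* lost its call without WT liver 1, 2 or 3 or Null liver 3, *Acaca* and *Elovl6* without WT liver 1 or 3, *Lpin1* without WT liver 3 or Null liver 3, and *Me1* without WT liver 2.

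Of 17 genes of the insulin and IGF axis, 4 were higher and 0 lower, against 10.8% of all genes higher, while the list's median log2 fold change was −0.02 with 6 livers and −0.14 with 5, opposite in sign to the calls. *Igfbp1*, an IGF-binding protein that the liver releases in fasting and stress, was counted at 1641, 1280 and 1993 CPM in the WT livers and at 3685, 2797 and 6548 CPM in the Null livers (log2 fold change 1.41, SE 0.32, edgeR adjusted p = 0.0176). *Irs2*, an adaptor of the insulin receptor, was counted at 36.3, 19.4 and 36.3 CPM in the WT livers and at 71.5, 59.4 and 103 CPM in the Null livers (log2 fold change 1.35, SE 0.29, edgeR adjusted p = 0.0147), and *Socs2*, a brake on growth hormone signals, at 27.7, 16.1 and 22.03 CPM in the WT livers and at 49.04, 51.7 and 58.7 CPM in the Null livers (log2 fold change 1.27, SE 0.19, edgeR adjusted p = 0.00497). The receptor *Igf1r* had a log2 fold change of 0.84. *Igf1*, *Insr* and *Ghr* were not called. *Igfbp1* lost its call without WT liver 1 or 2, and the other 3 genes stayed called whichever liver was left out. Null liver 3 was the highest for *Igfbp1*, *Irs2* and *Socs2*.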
